A study of Homo sapiens with 2 samples.

Results

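The SLC25A genes encode the mitochondrial carriers, and their messenger RNA was compared between MDA-MB-231 cells and the radiotherapy-resistant line RT-R-MDA-MB-231. Members were all rows of both count files whose symbol was SLC25A followed only by digits, with repeated symbols summed, so antisense and pseudogene rows were left out. That rule found 48 of the 24462 gene symbols. All measured values below compare 1 library of each line.

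Mitochondrial carriers are small membrane proteins of a common fold, built from repeated modules, and most sit in the inner mitochondrial membrane. Each moves a metabolite, nucleotide, cofactor or ion between the cytosol and the matrix, often in exchange for another solute. Through them ATP leaves and ADP and phosphate enter, reducing equivalents and carbon skeletons are shuttled, and iron, folate, glutathione and NAD reach the matrix.

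MDA-MB-231 is an established human triple negative breast cancer line, and RT-R-MDA-MB-231 was derived from it by repeated X-ray doses of 2 Gy until 50 Gy had been given. Both were cultured in the same RPMI medium with 10% fetal bovine serum and antibiotics. Whether the resistant line is a pool or a single clone, and how long before RNA harvest it was last irradiated, is not given in the sources used here. RNA was taken as total RNA (500 ng per library) and read with a 3′ tag kit, which counts transcript ends, so that gene length carries little weight.

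The parental library held 9255008 counts and the RT-R library 10014804. The line markers VIM, CD44, AXL and KRT18 together had 16390 and 24062 counts. ESR1 and PGR, the estrogen and progesterone receptor genes, had at most 1 count in either library, and ERBB2 had 230 and 174. All 4 leukocyte markers checked were at or near 0 (summed 5 and 2 counts). The 3 endothelial markers summed to 224 and 52 counts, nearly all from PECAM1 (223 and 50), with CDH5 at 0 and 1. The 4 fibroblast markers summed to 111 and 106 counts, with COL3A1 at 0 in both. The part of other cell types in the differences below was not tested.

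Of the 48 carriers, 38 had 20 or more counts in a library, and each of these had them in both libraries. They are called measured here. The other 10 were SLC25A2, SLC25A31, SLC25A47 and SLC25A48, listed at 0 in both libraries, and SLC25A18, SLC25A21, SLC25A34, SLC25A41, SLC25A52 and SLC25A53, with 1 to 12 counts. On the CPM scale, counts relative to the library total, a count of 0 allows up to 3 counts, which is 0.324 CPM for parental and 0.300 CPM for RT-R. Just inside the minimum lay SLC25A45 (20 parental and 40 RT-R counts), and just outside it lay SLC25A41 (1 and 12) and SLC25A52 (10 and 8).

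Ratios of RT-R to parental use counts scaled by TMM (trimmed mean of M-values), which balances the bulk of genes between the libraries. Each is followed by an exact 95% interval that covers counting error only. How far cultures of a line vary is not in it, nor is the copying of molecules by PCR, since the labels name no molecular identifiers. A carrier is said to have risen or fallen when it was measured, differed by 2-fold or more on the log2 scale of scaled counts plus 0.5, and had an interval on 1 side of equality. With 1 library per line no difference has a replicate check, no test across samples is possible and no p-value is given. In bulk RNA, fewer cells with a transcript and less transcript per cell cannot be told apart.

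The carriers that fell by this rule were SLC25A5, SLC25A6, SLC25A14 and SLC25A43 on the X chromosome and SLC25A40 on chromosome 7. SLC25A10 lay just short of it. The promoter windows of the 5 that fell, 250 bases before to 50 bases after the annotated start (RefSeq, GRCh38.p14), are printed here because these genes carry the calls described below. The windows are chrX:119468194-119468493 (plus strand) for SLC25A5, chrX:1392064-1392363 (minus strand) for SLC25A6, chrX:130339669-130339968 (plus) for SLC25A14, chrX:119399086-119399385 (plus) for SLC25A43 and chr7:87876311-87876610 (minus) for SLC25A40. SLC25A6 has the same window on the Y chromosome, since it lies in the region that pairs between X and Y. Sequences run 5′ to 3′ on the gene's strand, and capitals mark the matches to the motifs described after them.
SLC25A5: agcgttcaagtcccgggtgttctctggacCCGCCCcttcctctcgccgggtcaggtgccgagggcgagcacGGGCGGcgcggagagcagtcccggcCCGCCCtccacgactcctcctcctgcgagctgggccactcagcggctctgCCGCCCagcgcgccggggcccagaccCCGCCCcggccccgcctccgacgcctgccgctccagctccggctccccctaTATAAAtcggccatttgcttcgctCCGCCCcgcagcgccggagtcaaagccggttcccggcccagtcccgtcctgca
SLC25A6: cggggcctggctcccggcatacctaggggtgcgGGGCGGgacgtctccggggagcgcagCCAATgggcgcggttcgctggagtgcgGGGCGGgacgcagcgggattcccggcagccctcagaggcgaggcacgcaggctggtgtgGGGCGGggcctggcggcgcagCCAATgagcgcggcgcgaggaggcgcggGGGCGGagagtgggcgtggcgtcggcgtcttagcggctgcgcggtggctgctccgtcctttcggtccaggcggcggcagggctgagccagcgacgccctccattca
SLC25A14: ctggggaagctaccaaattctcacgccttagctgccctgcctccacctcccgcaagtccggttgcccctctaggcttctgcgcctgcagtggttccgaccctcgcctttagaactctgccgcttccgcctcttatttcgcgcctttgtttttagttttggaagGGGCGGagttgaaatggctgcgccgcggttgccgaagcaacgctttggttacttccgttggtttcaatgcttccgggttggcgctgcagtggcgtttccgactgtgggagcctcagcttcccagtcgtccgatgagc
SLC25A43: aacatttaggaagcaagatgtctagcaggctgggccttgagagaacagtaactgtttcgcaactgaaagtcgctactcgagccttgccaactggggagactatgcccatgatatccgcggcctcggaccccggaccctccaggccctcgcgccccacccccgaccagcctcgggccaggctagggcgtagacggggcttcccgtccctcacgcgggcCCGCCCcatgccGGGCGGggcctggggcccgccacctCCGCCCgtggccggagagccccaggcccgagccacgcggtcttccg
SLC25A40: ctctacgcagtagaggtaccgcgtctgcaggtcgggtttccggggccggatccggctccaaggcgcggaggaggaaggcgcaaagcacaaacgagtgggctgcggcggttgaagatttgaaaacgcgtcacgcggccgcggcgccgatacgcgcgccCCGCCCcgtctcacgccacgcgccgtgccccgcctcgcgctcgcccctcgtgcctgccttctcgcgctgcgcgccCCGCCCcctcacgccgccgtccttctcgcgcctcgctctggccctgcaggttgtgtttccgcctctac

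On either strand of these windows a search was made for the CCAAT box (CCAAT), the GC box (GGGCGG), the TATA box (TATAAA), an ETS core (CCGGAAGT), an NRF1 core (GCGCANGCG) and the amino acid response element CARE (TGATGNAA). None of these motifs contains another. SLC25A5 held 6 GC boxes and 1 TATA box that begins 27 bases before the start. SLC25A6 held 2 CCAAT boxes and 4 GC boxes but no TATA box. SLC25A14 held 1 GC box, SLC25A43 held 3 and SLC25A40 held 2, with no match to the other motifs. All 5 thus had a GC box, and a GC box lay in 44.9% of the 34796 different RefSeq promoter windows.

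Windows were found for 40 of the 48 carriers, 50 windows in all because some genes have several starts. A GC box lay in 33 of the 50 (66.0%, against 44.9% of all windows) and a CCAAT box in 22 (44.0%, against 34.6%). An NRF1 core lay in 5 (10.0%, against 7.46%), in SLC25A3, SLC25A11, SLC25A31, SLC25A51 and SLC25A52. An ETS core lay in 4 (8.0%, against 4.13%), a TATA box in 4 (8.0%, against 11.6%) and a CARE in 1 (2.0%, against 3.63%), that of SLC25A11. Median GC content was 65.8% over the carrier windows and 58.7% over all windows. These are letter matches and do not show that a factor binds.

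Over the family, 0 of 38 measured carriers rose and 5 (13.2%) fell, where 6.89% of all 12644 measured genes rose and 3.97% fell. At 1.5-fold without the interval rule, 1 carrier was higher and 7 were lower, where 14.9% of all measured genes were higher and 12.6% lower. The median log2 ratio of the carriers was -0.10, beside -0.01 over all measured genes. Values of 30 carriers (78.9%) lay within 1.5-fold of equality, beside 72.5% of all measured genes. The interval included equality for 21 carriers (55.3%, beside 41.9% of all measured genes), lay below it for 12 and above it for 5. Over all 12644 measured genes it lay below equality for 3841 and above it for 3507. Summed over the 48 genes, carriers took 31424 parental counts (0.340% of that library) and 29053 RT-R counts (0.290%).

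The carriers that fell lay mostly on the X chromosome. Genes placed on X are called X-linked here, and this includes SLC25A6, which lies in the region shared with Y. All 4 measured X-linked carriers fell, with log2 ratios from -1.29 to -1.01, whereas 1 of 34 autosomal carriers did. X-linked genes as a whole were lower in RT-R: 30.2% of the 424 measured fell by the same rule and their median log2 ratio was -0.78, whereas 3.06% of 12038 autosomal genes fell. At 1.5-fold without the interval rule, 4 of 4 X-linked and 3 of 34 autosomal carriers were lower. So were 282 of the 424 X-linked and 1293 of the 12038 autosomal genes. Summed counts of the 5 X-linked carriers went from 12703 to 6945, 2.04-fold lower (1.98 to 2.10). Summed counts of the 43 autosomal carriers went from 18721 to 22108, a ratio of 1.06 (1.04 to 1.08), and the median log2 ratio of the 34 measured ones was -0.02. Whether the number of X chromosomes differs between the lines was not tested.

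**Figure D1:**
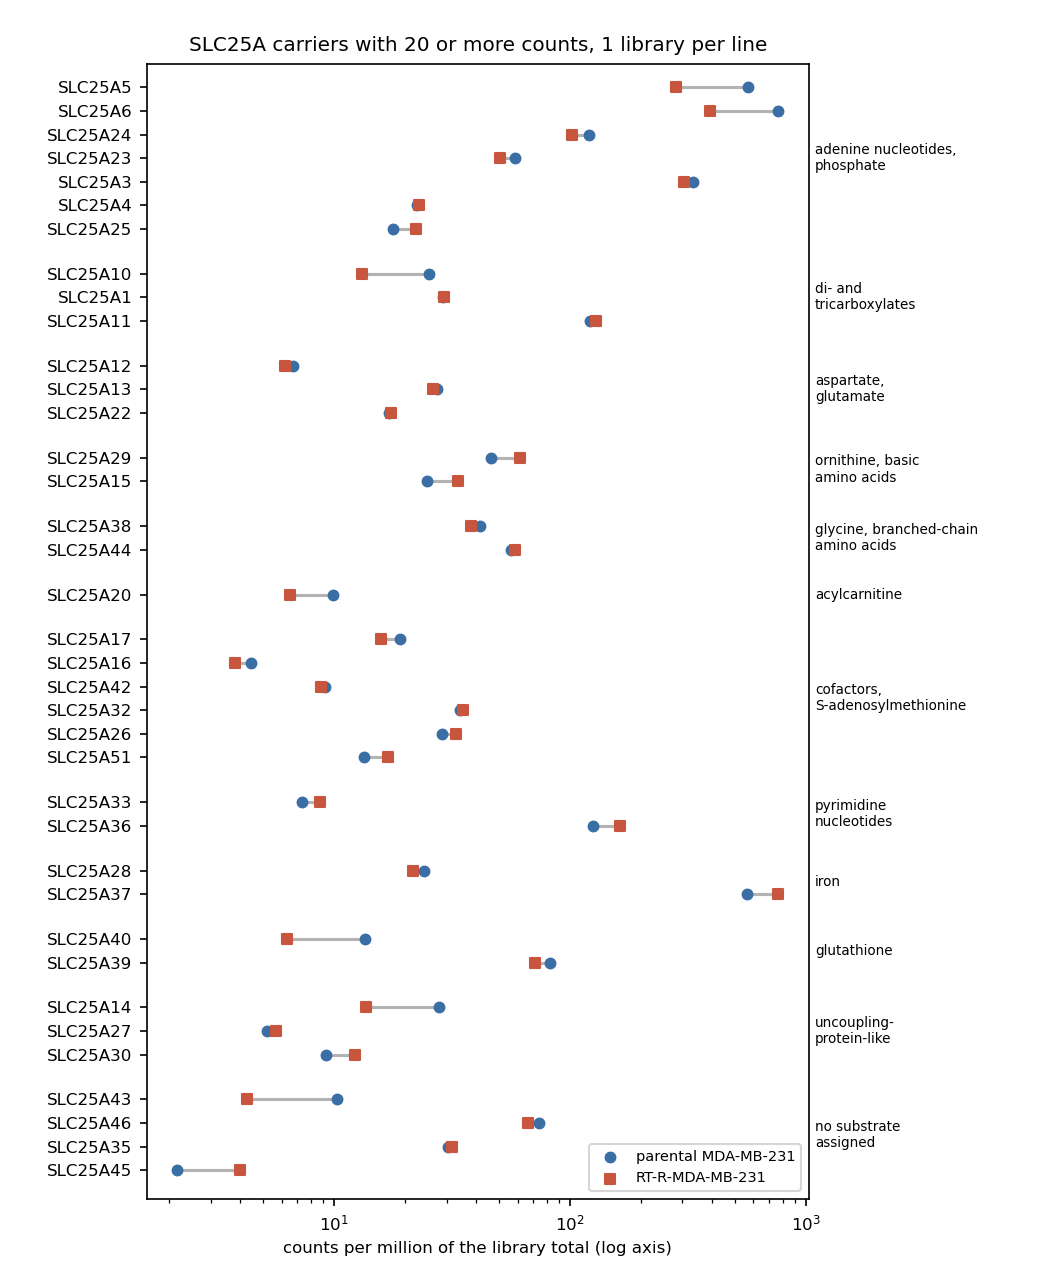
Level in CPM (share of the library total, log axis) for the measured SLC25A carriers named here, grouped by substrate, with circles for the parental and squares for the RT-R library and 1 library per line. For most carriers the 2 symbols nearly coincide; SLC25A5, SLC25A6, SLC25A10, SLC25A14, SLC25A40 and SLC25A43 have the square clearly to the left.

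The ATP/ADP carriers exchange matrix ATP for cytosolic ADP and supply the cell with the product of oxidative phosphorylation. SLC25A5, the form (ANT2) associated with proliferating cells, had 5255 parental and 2825 RT-R counts and fell 2.07-fold (1.98 to 2.17). SLC25A6 (ANT3) had 7090 and 3935 counts and fell 2.01-fold (1.93 to 2.09). SLC25A4 (ANT1), the form of heart and skeletal muscle, had 209 and 230 counts, a ratio of 0.987 (0.815 to 1.20). Both forms placed on the X chromosome were thus lower in RT-R by about the same factor, and the interval of the autosomal form included equality. The testis form SLC25A31 was listed at 0 in both libraries. Summed over the 4 genes, counts went from 12554 to 6990, 2.00-fold lower (1.95 to 2.06).

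SLC25A6 stands on 2 rows of each file, which held 3550 and 3540 counts in the parental library and 1927 and 2008 in RT-R. The rows were near equal but not identical in each library. Whether a read could be counted on both is not given in the sources used here, so the summed level is uncertain. If reads were counted on both, the intervals of SLC25A6 and of sums and shares that hold it would be too narrow. Taken alone, the first row was 2.05-fold lower (1.94 to 2.17) and the second 1.97-fold lower (1.86 to 2.08). The summed log2 ratio of -1.01 lies at the 2-fold limit, and with scaling by total counts it was -0.96, which ends the call.

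SLC25A3 imports the phosphate needed for ATP synthesis. It had 3079 and 3060 counts, a ratio of 0.891 (0.847 to 0.937). Calcium-regulated ATP-Mg/phosphate carriers adjust the adenine nucleotide content of the matrix. Among them SLC25A24 had 1117 and 1023 counts, 1.22-fold lower (1.12 to 1.33). SLC25A23 had 544 and 506 counts, 1.20-fold lower (1.06 to 1.36). Both intervals excluded equality, and both differences were far below 2-fold. SLC25A25 had 165 and 223 counts, a ratio of 1.21 (0.986 to 1.49). SLC25A41 had 1 parental and 12 RT-R counts, a ratio of 10.8 (1.59 to 460), but neither library reached 20 counts. Over the 9 genes of adenine nucleotide and phosphate transport the median log2 ratio of the 7 measured was -0.26. SLC25A5 and SLC25A6 fell and 0 rose, where 3.97% of all measured genes fell and 6.89% rose. Both are X-linked, and 30.2% of X-linked genes fell.

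Carriers of di- and tricarboxylates move citrate, malate, succinate and 2-oxoglutarate. SLC25A10, the dicarboxylate carrier that exchanges malate or succinate for phosphate, had 235 and 131 counts, 2.00-fold lower (1.61 to 2.50). Its log2 ratio on the scale with the pseudocount was -0.998, so it just missed the 2-fold rule. SLC25A1, the citrate carrier that provides acetyl units for lipid synthesis in the cytosol, had 268 and 293 counts, a ratio of 0.980 (0.828 to 1.16). SLC25A11, the oxoglutarate-malate carrier of the malate-aspartate shuttle, had 1128 and 1295, a ratio of 1.03 (0.950 to 1.12). SLC25A10 was therefore the 1 measured gene of this group whose interval excluded equality. SLC25A21, the oxodicarboxylate carrier, had 5 and 4 counts.

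Aspartate and glutamate carriers feed the malate-aspartate shuttle and glutamate oxidation. SLC25A12 (aralar) had 62 counts in each library, a ratio of 0.897 (0.620 to 1.30). SLC25A13 (citrin) had 254 and 262 counts, a ratio of 0.925 (0.775 to 1.10). SLC25A22, a glutamate carrier, had 158 and 175, a ratio of 0.993 (0.796 to 1.24). No interval of the 3 excluded equality. SLC25A18, the other glutamate carrier, had 6 and 9 counts.

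The carriers of ornithine and basic amino acids lay higher in RT-R without reaching 2-fold. SLC25A15, the ornithine carrier of the urea cycle, had 229 and 336 counts, a ratio of 1.32 (1.11 to 1.56). SLC25A29, which carries arginine and lysine, had 427 and 617, a ratio of 1.30 (1.14 to 1.47). Both intervals lay above equality. SLC25A15 lies on chromosome 13, where the median log2 ratio of 228 measured genes was 0.56. Its own value of 0.39 was below the median of its 30 measured neighbours, 0.76.

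The carriers of other amino acids and of acylcarnitine followed. SLC25A38, the glycine carrier that serves heme synthesis, had 384 and 381 counts, a ratio of 0.890 (0.770 to 1.03). SLC25A44, a carrier of branched-chain amino acids, had 519 and 585, a ratio of 1.01 (0.896 to 1.14). Neither interval excluded equality. SLC25A20 brings acylcarnitines into the matrix for fatty acid oxidation. It had 92 and 65 counts, a ratio of 0.634 (0.454 to 0.880), with an interval below equality but no 2-fold difference.

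Cofactor carriers lay near equality. Summed counts of the 8 genes were 1141 and 1275, a ratio of 1.00 (0.924 to 1.09). Of the 7 measured, 0 lay 1.5-fold from equality. Within 1.5-fold lay 72.5% of all measured genes and 88.2% of the 34 measured autosomal carriers. SLC25A32, the folate carrier, had 317 and 353 counts, a ratio of 0.998 (0.856 to 1.17). SLC25A26, which carries S-adenosylmethionine, had 265 and 331, a ratio of 1.12 (0.950 to 1.32). Neither interval excluded equality. The NAD carrier SLC25A51 had 124 and 170 counts, a ratio of 1.23 (0.970 to 1.56). Coenzyme A carriers SLC25A42 (85 and 88 counts) and SLC25A16 (41 and 38) had ratios of 0.928 (0.681 to 1.27) and 0.831 (0.520 to 1.32). SLC25A17, a peroxisomal carrier of coenzyme A and related cofactors, had 177 and 159 counts, 1.24-fold lower (0.997 to 1.55). All 6 intervals given here included equality.

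Among iron and pyrimidine nucleotide carriers, 1 of each pair lay higher in RT-R, by less than 1.5-fold. SLC25A37 (mitoferrin 1), which brings iron into the matrix, had 5232 and 7647 counts, a ratio of 1.31 (1.27 to 1.36). Its relative SLC25A28 (mitoferrin 2) had 222 and 217, a ratio of 0.876 (0.724 to 1.06). SLC25A36, which carries pyrimidine nucleotides, had 1163 and 1630 counts, a ratio of 1.26 (1.16 to 1.36). SLC25A33, with the same kind of substrate, had 68 and 87, a ratio of 1.15 (0.826 to 1.60). The intervals of SLC25A37 and SLC25A36 lay above equality, and those of their relatives included it.

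The glutathione carriers maintain the antioxidant pool of the matrix. SLC25A40 had 125 parental and 63 RT-R counts and fell 2.21-fold (1.62 to 3.05). Its relative SLC25A39 had 759 and 712 counts, 1.19-fold lower (1.07 to 1.32). SLC25A40 was the 1 autosomal carrier that fell. It lies on chromosome 7, where the median log2 ratio of 601 measured genes was -0.35, and its neighbours had a median of -0.42.

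The uncoupling-protein-like carriers are related to the brown fat uncoupling protein and have less settled substrates. SLC25A14, on the X chromosome, had 257 and 137 counts and fell 2.09-fold (1.69 to 2.59). SLC25A30, on chromosome 13, had 86 and 123, a ratio of 1.28 (0.966 to 1.71), and SLC25A27 had 48 and 57, a ratio of 1.06 (0.713 to 1.60). The autosomal pair had intervals that included equality.

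Of the carriers given no substrate here, SLC25A43 on the X chromosome had 95 and 43 counts and fell 2.46-fold (1.70 to 3.62). SLC25A46, an outer membrane protein that takes part in mitochondrial dynamics, had 687 and 663 counts, 1.16-fold lower (1.04 to 1.29). SLC25A35 had 283 and 318, a ratio of 1.01 (0.856 to 1.19). SLC25A45 had 20 and 40 counts, a ratio of 1.79 (1.02 to 3.24). It was the 1 measured carrier at least 1.5-fold higher, with the widest interval of the 38 as a ratio of its bounds. SLC25A34 had 5 and 7 counts and SLC25A53, on the X chromosome, 6 and 5.

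**Figure D2:**
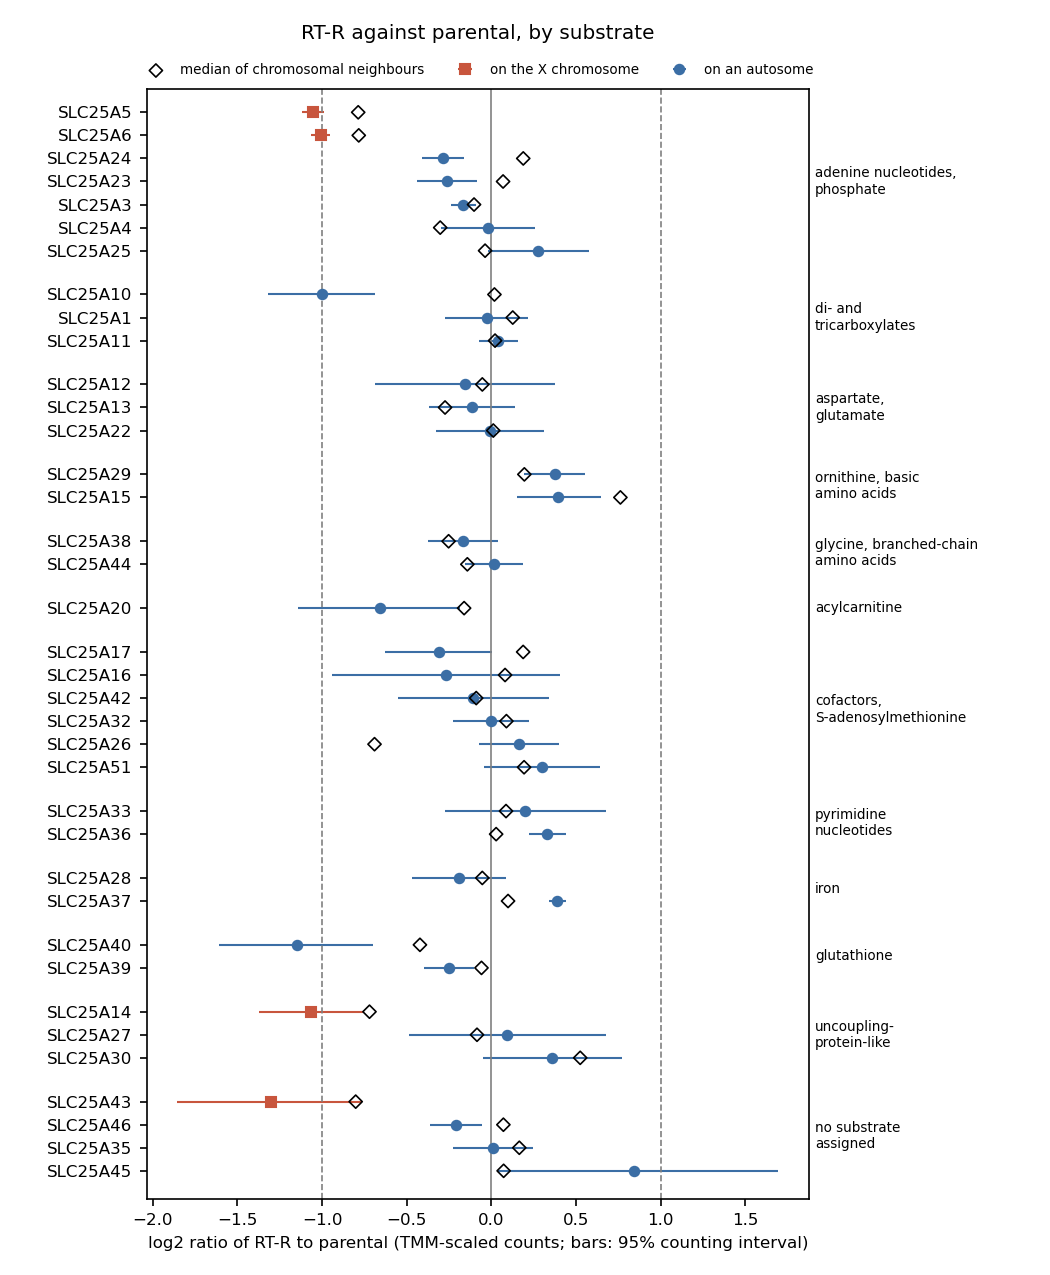
Log2 ratio of RT-R to parental for the measured carriers named here, by substrate, with bars for the 95% counting interval, squares for X-linked and circles for autosomal genes, and open diamonds for the median log2 ratio of up to 15 measured neighbours on each side. Dashed lines mark 2-fold; the 4 X-linked carriers lie left of -1, with their diamonds between -0.80 and -0.72.

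Each carrier was next set against its chromosomal neighbours, since the median RNA log2 ratio of measured genes was not the same on every chromosome. Whether DNA copy number differs between the lines was not tested. The neighbours of the X-linked carriers had median log2 ratios of -0.79 for SLC25A5, -0.78 for SLC25A6, -0.72 for SLC25A14 and -0.80 for SLC25A43. SLC25A5 and SLC25A43 lie close together on the X chromosome, so their neighbours overlap and their medians are not independent. After subtraction the 4 had values of -0.27, -0.22, -0.34 and -0.49, so all were still below their neighbours but none by 2-fold. SLC25A40 had -0.72 after subtraction. SLC25A10, whose neighbours had a median of 0.02, had -1.02 and was the 1 carrier past 2-fold on this scale. The share of all measured genes past 2-fold on this scale was not computed, so this count has no background beside it. SLC25A26 went the other way, with its own log2 ratio at 0.16. Its neighbours on chromosome 3 had a median of -0.69, a difference of 0.85. SLC25A45 lay 0.76 above the median of its neighbours. A median over up to 30 genes does not show the values of the genes nearest to a carrier.

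Shares among related carriers were compared as percentages of counts within each library, with exact Clopper-Pearson 95% intervals. SLC25A5 took 41.9% of ATP/ADP carrier counts in the parental library (40.99 to 42.7) and 40.4% in RT-R (39.3 to 41.6). SLC25A6 took 56.5% (55.6 to 57.3) and 56.3% (55.1 to 57.5). With its first row alone SLC25A6 took 39.4% and 38.7%, and SLC25A5 58.3% and 56.7%, so the order of these forms depends on summing the rows. SLC25A4 had 1.66% (1.45 to 1.90) and 3.29% (2.88 to 3.74), with intervals that do not overlap, while its own level was 22.6 and 23.0 CPM. SLC25A40 took 14.1% of the glutathione carrier counts (11.9 to 16.6) and 8.13% in RT-R (6.30 to 10.3). SLC25A37 took 95.9% of the mitoferrin counts (95.4 to 96.4) and 97.2% (96.9 to 97.6). These last 2 sets also had intervals that do not overlap.

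Several sets had shares with overlapping intervals. SLC25A13 took 80.4% of the counts of the aspartate-glutamate carriers in the parental library (75.6 to 84.6) and 80.9% in RT-R (76.2 to 85.0). SLC25A36 took 94.5% (93.05 to 95.7) and 94.9% (93.8 to 95.9) of the pyrimidine nucleotide carriers. SLC25A29 took 65.1% (61.3 to 68.7) and 64.7% (61.6 to 67.8) of its set with SLC25A15, SLC25A2 being at 0. Within the ATP-Mg/phosphate carriers SLC25A25 took 9.03% (7.76 to 10.4) and 12.6% (11.1 to 14.3), without overlap, and SLC25A24 61.1% (58.9 to 63.4) and 58.0% (55.6 to 60.3), with overlap.

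**Figure D3:**
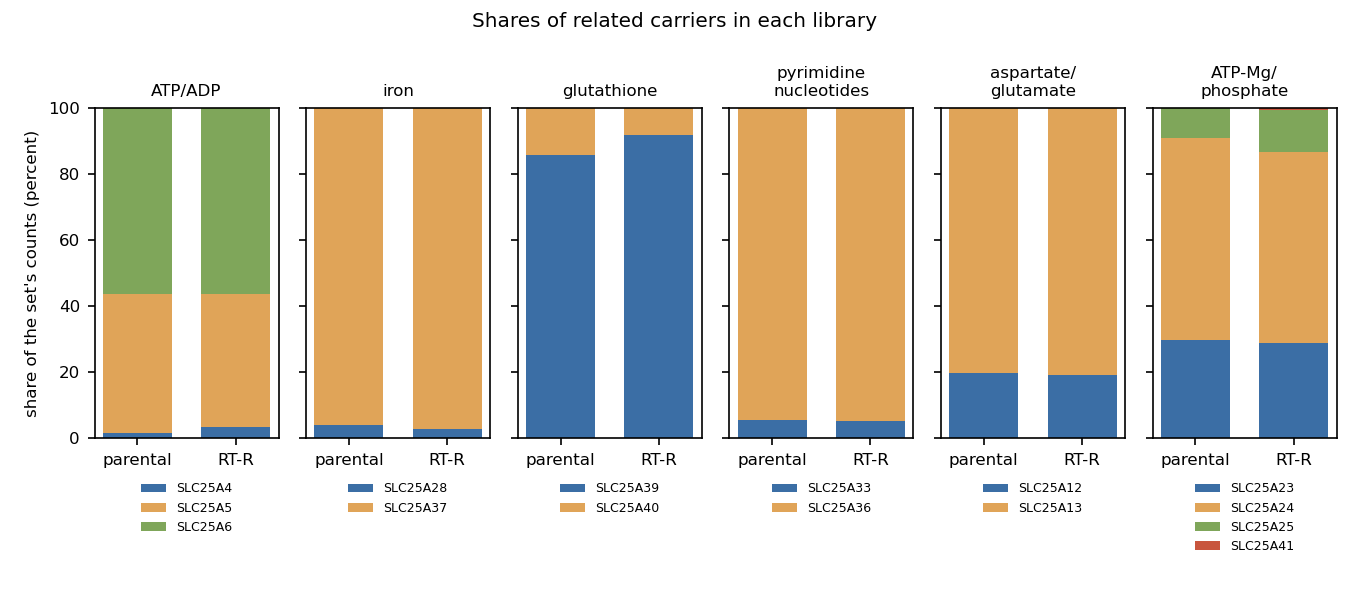
Share of counts (percent) taken by each gene of 6 sets of related carriers, in the parental and RT-R library. SLC25A4 goes from 1.66% to 3.29% of its set and SLC25A40 from 14.1% to 8.13%, while the bars of the pyrimidine nucleotide and aspartate/glutamate pairs look alike.

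Reads of near-identical transcripts can be divided among genes in ways the files do not show. Stretches of 50 bases in the last 300 bases of each carrier's coding transcripts (GENCODE v29) were therefore looked up in the transcripts of all other genes. SLC25A32 shared 90.8% of these stretches with the gene model AC012213.5, and SLC25A51 63.8% with SLC25A52 and SLC25A51 pseudogenes, so their counts are uncertain. SLC25A38 shared 6.09%, with the pseudogene SLC25A38P1, and SLC25A14 1.73%. SLC25A5, SLC25A6, SLC25A10, SLC25A40 and SLC25A43 shared none. On the opposite strand SLC25A25 shared 50.1% with its antisense gene SLC25A25-AS1 (51 and 59 counts). SLC25A35 shared 30.1% with RANGRF (789 and 792 counts) and SLC25A26 15.6% with LRIG1 (95 and 120). SLC25A29 shared 22.1% with the gene model AL157871.1. SLC25A30 shared 5.93% with TPT1-AS1, which had 173 and 349 counts, a ratio of 1.81 (1.503 to 2.18). SLC25A21 shared 51.2% with PAX9, and both genes had 5 parental and 4 RT-R counts. Whether strand was used in counting is not given in the sources used here, so these overlapping genes cannot be told apart with certainty.

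Beside the carriers, 5 further lists of genes of mitochondrial transport and metabolism were described. Family members that carry other symbols were UCP1 (0 in both libraries), UCP2, UCP3, MTCH1 and MTCH2. MTCH2, an outer membrane insertase, had 6168 and 5579 counts, 1.23-fold lower (1.19 to 1.28), and its relative MTCH1 4494 and 4597, 1.09-fold lower (1.05 to 1.14). UCP2, an uncoupling protein relative, had 381 and 374, 1.14-fold lower (0.982 to 1.31), and UCP3 20 and 40, a ratio of 1.79 (1.02 to 3.24). None of the 4 measured reached 2-fold, where 6.89% of all measured genes rose and 3.97% fell.

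Carriers made in the cytosol reach the inner membrane through the TOM complex, small TIM chaperones and the TIMM22 translocase. Of 15 measured genes of this route, 2 fell and 0 rose, where 3.97% of all measured genes fell and 6.89% rose, and the median log2 ratio was -0.32. TIMM8A, a small TIM chaperone gene on the X chromosome, had 247 and 118 counts and fell 2.33-fold (1.87 to 2.93). AGK, a chromosome 7 gene for a lipid kinase that is also a subunit of the TIMM22 translocase, had 137 and 65 counts and fell 2.35-fold (1.74 to 3.21). With the median of their chromosomal neighbours subtracted, log2 ratios were -0.41 for TIMM8A and -0.99 for AGK, so neither passed 2-fold on that scale. TIMM13 had 5666 and 3775, 1.67-fold lower (1.61 to 1.74). TIMM10 and TIMM10B had ratios of 1.40 (1.25 to 1.58) and 1.31 (1.01 to 1.70), the 2 highest of the list, and TIMM22 itself was 1.16-fold lower (0.981 to 1.37).

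Among 19 other transporters of the mitochondrial membranes, 0 rose and 0 fell, 1 lay 1.5-fold or more above equality and 4 lay as far below. Over all measured genes 6.89% rose and 3.97% fell, 14.9% lay 1.5-fold above and 12.6% as far below. The median log2 ratio of the list was -0.30. MPC2, a subunit of the pyruvate carrier, had 380 and 223 counts, 1.90-fold lower (1.61 to 2.25), while its partner MPC1 had 116 and 117, 1.11-fold lower (0.848 to 1.44). CCDC109B, the inhibitory paralog of the calcium uniporter pore, was 1.73-fold lower (1.53 to 1.97), and SFXN4 1.64-fold lower (1.49 to 1.80). MICU3 had a ratio of 1.63 (0.997 to 2.71) from 27 and 49 counts.

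Enzymes that use the carriers' substrates had values on both sides of equality. In the malate-aspartate and citrate list of 10 genes, GOT1, the cytosolic aspartate aminotransferase, had 668 and 1285 counts, a ratio of 1.72 (1.57 to 1.90), and the median log2 ratio of the list was -0.16. The citrate synthase gene CS was 1.59-fold lower (1.40 to 1.79). In the list of 15 enzymes matched to carrier substrates, 1 rose and 0 fell, beside 6.89% and 3.97% of all measured genes, and the median was -0.03. MTHFD2, an enzyme of mitochondrial folate metabolism, had 351 and 833 counts and rose 2.13-fold (1.88 to 2.42), beside a ratio of 0.998 for the folate carrier SLC25A32. PYCR1, which makes proline, had 1598 and 3552 counts, a ratio of 1.99 (1.88 to 2.12), just under the limit. MTHFD1L and SHMT2, also of mitochondrial folate metabolism, had ratios of 1.96 (1.73 to 2.22) and 1.73 (1.62 to 1.85). MTHFD2L, listed with them, had 24 and 29 counts, a ratio of 1.08 (0.609 to 1.94). ALDH18A1 and OAT, listed with PYCR1, had ratios of 0.955 (0.831 to 1.10) and 0.855 (0.781 to 0.936). NNT, which couples NADH to NADPH in the inner membrane, was 1.67-fold lower (1.42 to 1.98), and the NAD kinase gene NADK2 1.61-fold lower (1.36 to 1.91).

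**Figure D4:**
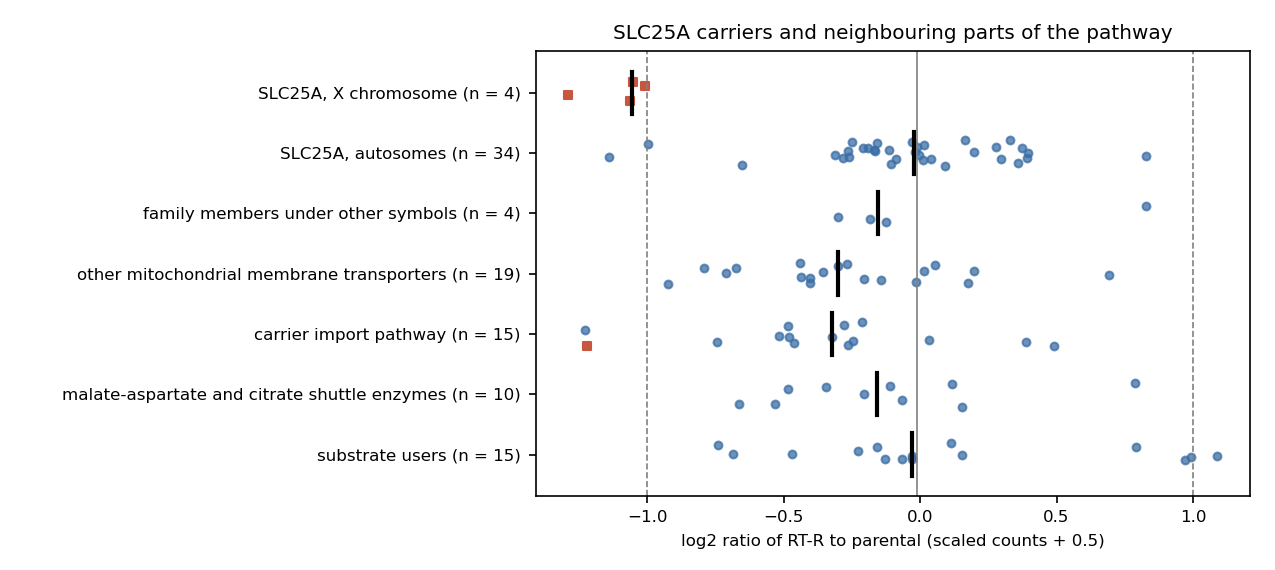
Log2 ratio of RT-R to parental for the measured genes of the X-linked and autosomal SLC25A carriers and of the 5 further lists, with squares for X-linked genes, black bars for list medians, a grey line for the median of all measured genes and dashed lines at 2-fold; points are spread vertically at random. Autosomal carriers centre at -0.02, whereas the import route centres at -0.32 and other transporters at -0.30.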

How the data were processed

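The authors deposited, for each line, raw whole-number counts per gene symbol, without normalization. The hg19 build is named, per the submitters' processing notes, and so are Bowtie2, bedtools and bcl2fastq (2.20.0.422), with no role stated. Annotation, strand and multi-mapping settings were not given in the sources used here. The kit is a 3′ tag kit, per the labels' protocols. Depth was 9255008 and 10014804 counts.

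Repeated symbols were summed. Scaling used edgeR 4.0.16 (TMM) in R 4.3.3, giving a size ratio of 1.12. Intervals are exact conditional (Clopper-Pearson) from scipy 1.17.1 in Python 3.11.15. Fold limits use scaled counts plus 0.5. Neighbours are up to 15 measured genes on each side in RefSeq (GRCh38.p14) order, which placed 98.6% of the measured symbols. The measured carriers are named, except 1 that is counted in the totals but not reported here. From each further list, genes among the 3 highest and 3 lowest by the interval bound nearest to 1 are named. A few others (UCP1, MPC1, TIMM22, SHMT2, MTHFD2L, ALDH18A1) were added for their role after their values were seen. The members and lists were chosen with earlier results of these data known. The calculations were tested on simulated data. Alternatives were other scalings (including DESeq2 1.42.0), pseudocounts, count minimums, fold limits and subtraction of neighbours.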

Additional observations from a re-analysis of the deposited data

How the results depend on the processing

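Of the 5 carriers that fell, SLC25A5, SLC25A14, SLC25A40 and SLC25A43 did so under all 3 other scalings, and SLC25A6 was called under scaling by the median of ratios but not by total counts (log2 ratio -0.96) or the upper quartile (-0.97). Scaling moved the median of all genes by at most 0.04. Chosen after seeing the data, a fold without pseudocount added SLC25A10 (6 lower). Autosomal carriers alone, also chosen after, gave 1 lower of 34 at 2-fold and 3 lower at 1.5-fold. Of 12038 measured autosomal genes, 3.06% fell and 1293 were 1.5-fold lower. A 4-fold limit left 0 lower. A 1.5-fold limit with the interval gave 1 higher (SLC25A45) and 7 lower (SLC25A10 and SLC25A20 beside the 5 that fell). Without a count minimum 1 carrier was called higher (SLC25A41) and 2 were 1.5-fold higher, and with a minimum of 100 counts 0 were. That minimum left 4 called lower, without SLC25A43, and 5 lower at 1.5-fold. With neighbours subtracted, 1 was called lower (SLC25A10), 2 were 1.5-fold higher (SLC25A26, SLC25A45) and 2 were 1.5-fold lower (SLC25A10, SLC25A40). The median then was -0.0941 for ornithine and basic amino acid carriers and 0.12 for glycine and branched-chain ones. The error of the neighbours' median is not in these intervals. Shares of all measured genes past these limits after subtraction were not computed. Nor were they for the other scalings, the fold without pseudocount, the 4-fold limit, the 1.5-fold limit with the interval or the other count minimums. Those counts therefore have no background beside them.

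Using the first row of each symbol alone, which drops a row of SLC25A6, gave parental shares of 2.32% for SLC25A4, 58.3% for SLC25A5 and 39.4% for SLC25A6, and RT-R shares of 4.62%, 56.7% and 38.7%. No paired analysis was possible because each line has 1 library. Depth limits the carriers under 100 counts most.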
